A study of Mus musculus with 52 samples.

Results

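Sertoli cells are the somatic nurse cells of the testis, and 10 genes by which they are known were followed here in wild-type, Tug1-/- and rescue testes. The members were taken by name, Sox9, Wt1, Gata4, Gata1, Dmrt1, Amh, Inha, Fshr, Rhox5 and Cldn11, and all 10 were found among the 34865 genes listed for testes. They were picked as known marker genes of the cell, with earlier results of these data known. The study asked what the locus of the long noncoding RNA Tug1 does in the mouse, and whether Tug1 RNA supplied from a transgene restores gene expression in testes that lack the locus. Tissue RNA was measured by sequencing of poly(A) RNA, and the tables hold 1 mean per group in TPM, a length-corrected measure of each gene's part in the transcripts of a library.

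The testes groups were 4 wild-type, 4 Tug1-/- and 3 rescue samples, all male and given as C57BL/6J/129S6 in background. In Tug1-/- mice (Tug1_tm1.1Vlcg) a lacZ cassette stands in place of Tug1 from behind its first exon on, under the gene's own promoter. Rescue mice were Tug1-/- and carried 2 further alleles, tg(Tug1), a Tug1 cDNA of an isoform without the 5′ region under a tetracycline-responsive promoter, and CAGs-rtTA3, the ubiquitously driven activator, and were kept on a doxycycline diet from the plug date. The labels give the Neo cassette for Tug1-/- and rescue testes but not for wild-type testes, while the study's methods describe a colony from which the cassette had been removed. If the labels hold, genotype and cassette cannot be told apart in testes. Doxycycline, the activator and the transgene were present together in rescue mice only. By the study's methods the activator came from a B6N.FVB(Cg) line, so strain background may also have differed in rescue mice. Such a difference cannot be told apart from the transgene, the activator and doxycycline. Ages are not in the labels. Prostate (3 wild-type and 2 Tug1-/- samples) and eyes, heart, liver, spleen and embryonic fibroblasts (MEFs; 3 samples of each genotype) served as background, with both genotypes labelled N3-C57BL/6J and free of Neo. Brain values came from libraries outside the series' samples. Tug1 itself checked the genotypes: wild-type testes had a mean of 40.1 TPM, Tug1-/- testes 0.885 TPM and rescue testes 1.60 TPM.

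A Sertoli cell encloses the developing germ cells of the seminiferous tubule, feeds them, seals them behind the blood-testis barrier and answers to follicle-stimulating hormone and androgen. Its identity rests on a set of transcription factors laid down in the fetal gonad and kept in the adult. The mature cell does not divide. In whole tissue, a change in the number of Sertoli cells and a change in RNA per Sertoli cell cannot be told apart.

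The mean of every member was lowest in wild-type, intermediate in Tug1-/- and highest in rescue testes. Of the 10 members, 7 were more than 1.2-fold higher in Tug1-/- than in wild-type testes and none was more than 1.2-fold lower, against 10.2% of all genes higher and 8.24% lower. In rescue against Tug1-/- testes 4 members were higher by that margin and none was lower, against 5.76% and 9.90% of all genes. With a 1.5-fold limit, 0 members were past it in either of these 2 comparisons, against 2.75% and 1.42% of all genes higher. In rescue against wild-type testes all 10 were higher, against 11.2% of all genes higher and 11.7% lower. These counts are a size limit on the authors' means and no test, since no value of a single sample was available. The spread between mice is therefore not given for any difference here. The authors' own statistics, fitted on the samples, were left unused. The genes counted had at least 1 TPM in either group, which all 10 members passed in each comparison. The 3 comparisons share libraries and are not independent of each other.

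**Figure D1:**
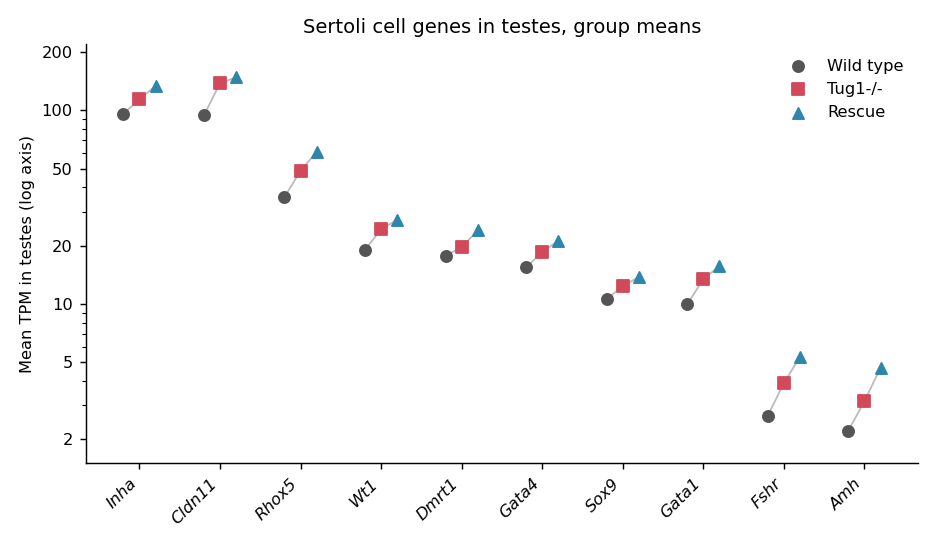
Mean TPM of each Sertoli cell gene in testes (vertical log axis), for wild-type (circles), Tug1-/- (squares) and rescue (triangles) testes. Points are the authors' group means with no error bars, and for each gene the wild-type mean is the lowest and the rescue mean the highest.

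Fshr and Cldn11 had the largest differences between Tug1-/- and wild-type testes. Upstream sequences are shown for these 2 members because their reference starts lay within 63 bases of the deposited gene start. Each is the 250 bases before the RefSeq transcription start, 5′ to 3′ on the strand of the gene, build GRCm38.p6. The Fshr window is chr17:89200676-89200925, minus strand, and the Cldn11 window is chr3:31149670-31149919, plus strand. Capitals mark an E-box (CACGTG, its own reverse complement) in Fshr and CCAAT boxes, read on the opposite strand as ATTGG, in Cldn11.
Fshr: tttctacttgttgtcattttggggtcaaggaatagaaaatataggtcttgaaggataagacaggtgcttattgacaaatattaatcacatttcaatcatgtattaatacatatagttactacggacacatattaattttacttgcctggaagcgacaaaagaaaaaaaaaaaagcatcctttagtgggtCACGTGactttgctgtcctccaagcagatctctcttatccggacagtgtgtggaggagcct
Cldn11: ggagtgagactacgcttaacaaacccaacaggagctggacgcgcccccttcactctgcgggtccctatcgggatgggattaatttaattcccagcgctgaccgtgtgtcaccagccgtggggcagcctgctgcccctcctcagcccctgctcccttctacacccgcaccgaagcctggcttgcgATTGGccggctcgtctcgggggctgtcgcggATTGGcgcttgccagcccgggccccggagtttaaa
The Fshr E-box lay 61 to 56 bases before the start, and an E-box of these letters was found in 6.02% of the 32851 promoter windows of the same length. An E-box near the start of Fshr is known to bind USF factors. The CCAAT boxes of Cldn11 lay 66 to 62 and 35 to 31 bases before the start, in a window of 63.6% GC against 36.8% GC in Fshr and a median of 52.4% over all windows, and 33.8% of all windows held a CCAAT box on either strand. No marked motif overlapped another. On either strand, neither window held a GATA motif (AGATAA or TGATAA, each also with G as its last base, found in 26.5% of windows), a SOX motif (AACAAT, 9.42%), an NR5A1 motif (AAGGTCA, 4.08%), a TATA box (TATAAA, 12.4%) or a GC box (GGGCGG, 32.7%). RefSeq windows were also given for Gata1, Inha and Rhox5, but those starts lay 10161, 532 and 50234 bases from the gene start in the tables and are not shown.

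Sox9, Wt1, Gata4, Gata1 and Dmrt1, transcription factors of Sertoli cells, were all higher in Tug1-/- testes, by 1.11-fold to 1.35-fold. Of all genes, 61.7% were higher in that comparison, and Sox9 and Dmrt1 stayed under 1.2-fold. Differences below are on the log2(TPM + 0.1) scale. Sox9 (chr11:112782224-112787760, plus strand, GRCm38), which directs the fetal gonad to become a testis, had 10.6 TPM in wild-type, 12.4 TPM in Tug1-/- and 13.8 TPM in rescue testes. The difference was 0.22 from wild type to Tug1-/- and 0.15 from Tug1-/- to rescue, neither past 1.2-fold, and 0.38 over both steps, the smallest of the members. Wt1 (chr2:105126529-105173616, plus strand), a zinc finger factor that maintains the cell's fate, had 19.0, 24.3 and 27.2 TPM in the same order of groups. Wt1 passed the limit in the first step with 0.35 and not in the second with 0.16.

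The GATA factors bind the promoters of hormone genes in Sertoli cells. Gata4 (chr14:63198922-63271692, minus strand), which Leydig cells also make, had 15.4 TPM in wild-type, 18.6 TPM in Tug1-/- and 21.2 TPM in rescue testes. Its ratio of 1.202 placed it just past the limit in the first step, a call lost with a pseudocount of 1 TPM or centring on all genes. Its second step was 0.19. Gata1 (chrX:7959260-7978071, minus strand), known as the master factor of red cell precursors and made in Sertoli cells in some stages of the tubule, had 9.95, 13.4 and 15.7 TPM. It was 0.43 higher in Tug1-/- than in wild-type testes and 0.65 higher in rescue than in wild-type testes. Among Sox9, Wt1, Gata4, Gata1 and Dmrt1 it had the largest first step, under the 0.45 of the homeobox gene Rhox5.

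Dmrt1 (chr19:25505618-25604329, plus strand) keeps Sertoli cells from turning into ovarian cells and is also made by spermatogonia. Its means were 17.7 TPM in wild-type, 19.6 TPM in Tug1-/- and 24.0 TPM in rescue testes. The first step of 0.15 was the smallest of the members and lay at the 79.4th percentile of all genes, while the second step of 0.29 passed the limit. Dmrt1 thus had 66.3% of its log2 difference between wild type and rescue in the second step, the largest such share, against 15.8% for Cldn11, the smallest.

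The hormones and the hormone receptor of the Sertoli cell included the genes with the largest ratios. Amh (chr10:80805243-80807648, plus strand), the anti-Müllerian hormone that removes the female duct in the male fetus and is low in adult testis, had 2.21 TPM in wild-type, 3.14 TPM in Tug1-/- and 4.68 TPM in rescue testes. Its rescue mean was 2.12-fold its wild-type mean, the highest ratio of the 10. The log2 steps were 0.49 and 0.56. Fshr (chr17:88985170-89200612, minus strand), the receptor for follicle-stimulating hormone and in males a gene of Sertoli cells, had 2.65, 3.90 and 5.33 TPM. Its rescue mean was 2.01-fold its wild-type mean, with steps of 0.54 and 0.44.

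Inha (chr1:75507077-75510366, plus strand) encodes the alpha subunit of inhibin, by which the testis restrains follicle-stimulating hormone, and is made by Sertoli and Leydig cells. It was the most abundant member in wild-type testes with 96.1 TPM, and had 114 TPM in Tug1-/- and 134 TPM in rescue testes. Both of its steps, 0.24 and 0.23, stayed under the limit, and their sum of 0.48 passed it. Its partner subunit gene Inhbb had 16.4, 16.7 and 19.0 TPM.

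The last pair covers androgen response and the barrier. Rhox5 (chrX:37804842-37808876, plus strand), a homeobox gene of Sertoli cells that responds to androgen, had 35.7 TPM in wild-type, 48.7 TPM in Tug1-/- and 61.1 TPM in rescue testes, with steps of 0.45 and 0.33. Cldn11 (chr3:31149920-31164324, plus strand), the claudin that forms the tight junction strands of the blood-testis barrier, had 94.2, 138 and 148 TPM. On the log2(TPM + 0.1) scale Cldn11 had the largest first step of the members, 0.55, at the 97.0th percentile of all genes, and the smallest second step, 0.10. As a ratio of means the first step was 1.46-fold in Cldn11 and 1.47-fold in Fshr. It moved above Inha as the most abundant member in Tug1-/- testes.

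**Figure D2:**
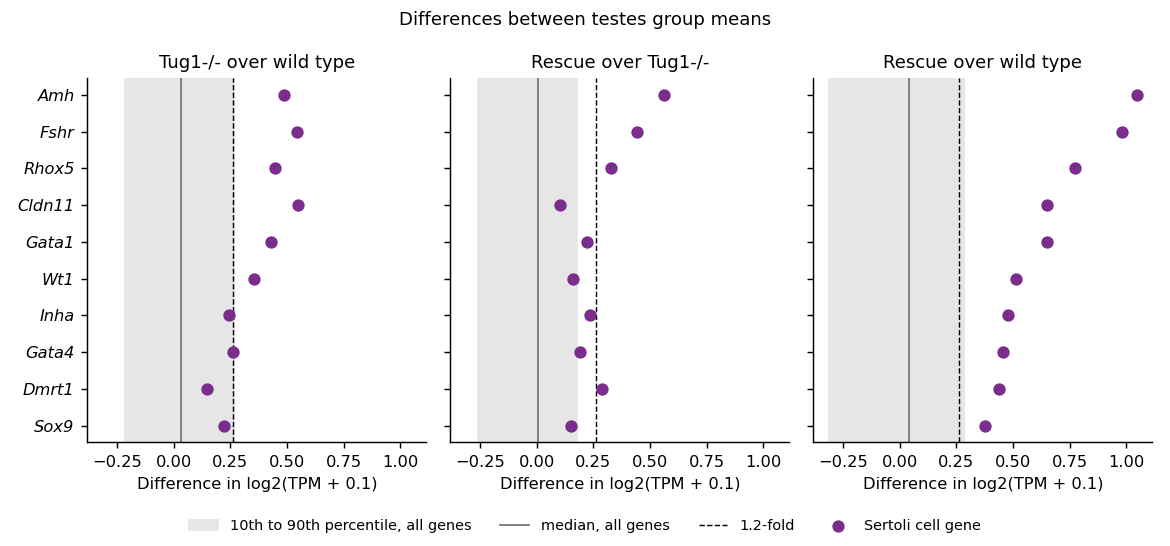
Difference in log2(mean TPM + 0.1) of each Sertoli cell gene (points) for 3 pairs of testes groups. The grey band spans the 10th to 90th percentile of all genes of at least 1 TPM, the grey line is their median and the dashed line marks 1.2-fold. In the right panel all 10 points lie to the right of the band.

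The median difference of the members was 0.39 from wild type to Tug1-/-, 0.23 from Tug1-/- to rescue and 0.58 from wild type to rescue. Over all genes the medians were 0.03, 0.01 and 0.04. Amh, Fshr and Rhox5 passed 1.2-fold upward in both steps, against 0.640% of genes. The order wild type, Tug1-/-, rescue from low to high was held by all 10 members and by 30.2% of genes of at least 1 TPM. Leaving out Gata4, Inha, Dmrt1 and Gata1, which Leydig cells, spermatogonia or red cell precursors also make, the median of the other 6 was 0.47 in the first step and 0.24 in the second.

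The list counts in testes below stand beside 10.2% of all genes higher and 8.24% lower in the first step. In the second step these shares were 5.76% and 9.90%. Other regulators of Sertoli cells did not all go the same way. Of 9 listed, 3 were past 1.2-fold higher and 3 past it lower in Tug1-/- testes, with a median of 0.09. Nr5a1, a nuclear receptor that drives Amh, had 20.2 TPM in wild-type, 26.1 TPM in Tug1-/- and 29.5 TPM in rescue testes. Etv5, which Sertoli cells need to keep spermatogonial stem cells, went from 23.7 to 15.3 TPM and stood at 16.0 TPM in rescue testes. Emx2 had 11.8, 8.29 and 6.30 TPM, in the opposite order to the members. In the second step 1 regulator, Emx2, was past the limit, and lower.

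Of 19 genes of secreted and niche proteins, 18 had at least 1 TPM in wild-type or Tug1-/- testes, and of these 12 were past the limit higher in Tug1-/- testes and none lower. The median over all 19 was 0.29. The gene under the minimum was Inhba, the other inhibin beta subunit, with 0.605 TPM in wild-type, 0.239 TPM in Tug1-/- and 0.260 TPM in rescue testes. Fst, the activin-binding follistatin, had the largest difference, from 0.853 to 2.47 TPM with 1.68 TPM in rescue testes. Shbg, a carrier of androgen, had 14.0, 24.8 and 29.0 TPM. From Tug1-/- to rescue the median was 0.02, with 1 gene past the limit higher and 2 lower. The lower ones were Fst and Ptgds, a prostaglandin synthase, which went from 467 TPM in Tug1-/- to 169 TPM in rescue testes and had 381 TPM in wild-type testes.

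Of 12 junction genes of the blood-testis barrier, 2 were past the limit higher and 2 lower in Tug1-/- testes, with a median of 0.05. Cdh2, a cadherin, had 21.9, 28.2 and 30.7 TPM. Another claudin of the barrier, Cldn3, had 104 TPM in wild-type, 86.8 TPM in Tug1-/- and 85.4 TPM in rescue testes, and Ocln, occludin, had 6.01, 4.98 and 5.25 TPM. Both were thus lower where Cldn11 was higher. Cldn5, also an endothelial gene, was the 1 junction gene past the limit in the second step, from 9.95 to 6.73 TPM.

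Signalling genes downstream of Fshr showed small differences. Of 8, none was past the limit higher and 1 was lower in Tug1-/- testes, Pde4d, which breaks down cyclic AMP, with 1.42, 0.976 and 1.02 TPM. Among 7 androgen targets of Sertoli cells, 4 were higher and 1 lower, with a median of 0.33 in the first step and 0.04 in the second. Tubb3 had 37.5, 59.1 and 62.7 TPM, and Drd4, the 1 target past the limit in the second step, had 3.94, 5.13 and 6.48 TPM. The lower one was Cldn3, which is in both lists.

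Of 8 receptor and signalling genes for the hormones AMH and inhibin, 2 were past the limit higher in Tug1-/- testes. Amhr2, the dedicated receptor of AMH, had 210 TPM in wild-type, 313 TPM in Tug1-/- and 327 TPM in rescue testes, a first step of 0.57 and a second of 0.07. The other was Acvr1, with 3.23, 4.38 and 3.92 TPM. Of 7 genes by which Sertoli cells engulf dead germ cells, 1 was past the limit, Tyro3, with 21.9, 27.7 and 29.8 TPM. Over all 68 genes of these 7 lists, each counted 1 time, 24 were higher and 6 lower in the first step, with a median of 0.15. Of all genes, 10.2% were higher and 8.24% lower. In the second step 2 of the 68 were higher and 4 lower, with a median of 0.05, against 5.76% and 9.90% of all genes. The order of the members was held by 34 of the 68 and by 30.2% of genes of at least 1 TPM.

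**Figure D3:**
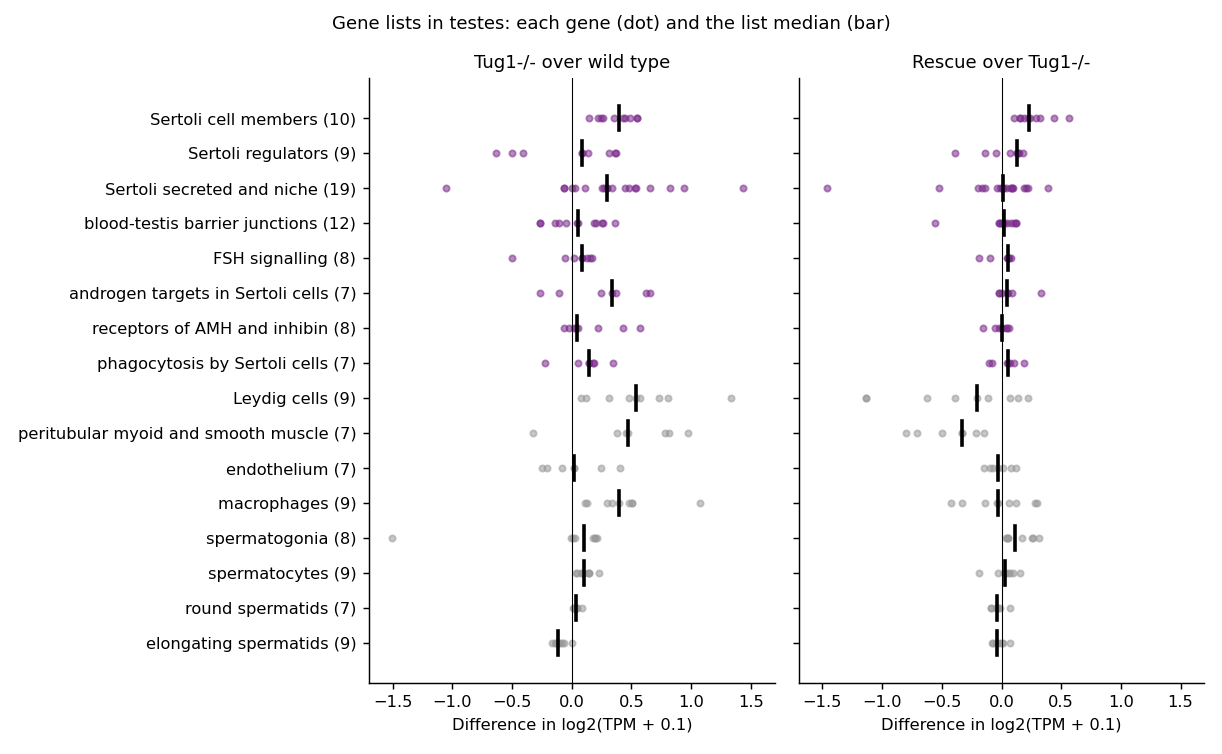
Difference in log2(mean TPM + 0.1) in testes for each gene (dots) of the members, of 7 wider Sertoli lists (purple) and of 8 lists of other testis cells (grey), with the list median as a black bar and the number of genes in brackets. The member medians are 0.39 and 0.23, while the Leydig and peritubular medians are positive on the left and negative on the right.

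Markers of other testis cells moved in the same comparisons, and their part in the members' values was not tested. Of 9 Leydig cell genes, the makers of androgen, 7 were past the limit higher in Tug1-/- testes and none lower, with a median of 0.54, and their summed level was 695 TPM in wild-type, 992 TPM in Tug1-/- and 791 TPM in rescue testes. From Tug1-/- to rescue 4 of the 9 were lower and none higher. Insl3 had 56.9, 144 and 65.5 TPM. Of 7 peritubular and smooth muscle genes, 6 were higher in the first step and 1, Actg2, lower, and 5 were lower in the second, with medians of 0.47 and -0.33. Des, desmin, had 4.09, 8.12 and 4.62 TPM. Their summed level, of which Actg2 made up 440 TPM in wild-type testes, was 558, 520 and 453 TPM.

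Of 9 macrophage genes, 7 were past the limit higher in Tug1-/- testes, with sums of 122, 163 and 163 TPM, and in the second step 2 were higher and 2 lower. Of 7 endothelial genes, 6 had at least 1 TPM and 1 of these was higher, with sums of 18.5, 19.3 and 19.2 TPM. The sum of the 10 members was 304, 396 and 455 TPM.

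Differences of the germ cell lists were smaller than those of the members by their medians. Among 9 genes of elongating spermatids, such as the protamines, none was past the limit, the medians were -0.11 and -0.04, and the summed level was 61940 TPM in wild-type, 58422 TPM in Tug1-/- and 57020 TPM in rescue testes. The 7 genes of round spermatids had sums of 1402, 1441 and 1416 TPM and the 9 genes of spermatocytes 892, 961 and 994 TPM, with none past the limit in any comparison. Of 8 spermatogonial genes, 1 was past the limit in the first step, Gfra1, the receptor of the Sertoli cell factor GDNF, with 11.1, 3.84 and 4.003 TPM. In the second step 2 were past it and higher, and the list's sums were 118, 124 and 130 TPM. When TPM was rescaled without the 9 elongating spermatid genes, the member medians were 0.39 and 0.23. All 10 members kept the order of groups under that scaling, and also without the 500 most abundant genes. Each rescaling applied 1 factor to all genes of a group. It moved the first-step median over all genes from 0.032 to 0.027 and 0.010, and the second-step median from 0.007 to 0.005 and 0.006. The smallest member steps were 0.15 and 0.10, so these rescalings could not change the order. The part of cell composition was not tested.

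The gene next to Amh was looked at because Amh values are low. Sf3a2, a splicing factor gene on the same strand, ends 319 bases before Amh and had 34.6 TPM in wild-type, 36.9 TPM in Tug1-/- and 42.6 TPM in rescue testes. Amh had 6.39, 8.52 and 10.999 TPM per 100 TPM of Sf3a2 in the same groups. In wild-type eyes, where Amh had 3.02 TPM, the value was 6.88, and in wild-type brain it was 4.23. In the other wild-type tissues it was lower, 0.785 in liver, 0.962 in heart, 0.993 in spleen, 0.644 in MEFs and 1.83 in prostate. Sf3a2 had 51.2 TPM in MEFs and 52.2 TPM in spleen, above its level in wild-type testes. The part of Sf3a2 in the Amh values was not tested. No gene listed in the testes table overlapped a member, and the closest was Wt1os, 19 bases from Wt1 on the opposite strand, with 4.37, 5.11 and 5.29 TPM.

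Outside the testes the members differed in how widely they were present, and 5 of the 10 had their highest wild-type mean in testes. Levels set across the testes table and the table of the other tissues come from separate tables, each in TPM. Fshr was listed in none of the 7 other tissues, and Dmrt1 only in spleen, at 0.0305 TPM. A gene under 3 reads in every replicate was removed by the authors, so a gene not listed may have had a few reads. Rhox5 was highest outside the testes in MEFs with 3.70 TPM, 9.64-fold below wild-type testes, and Inha in brain with 26.4 TPM, 3.63-fold below. Wt1 was highest outside the testes in spleen, with 8.81 TPM, 2.16-fold below wild-type testes. Inha reached 1 TPM in 6 of the 7 other wild-type tissues and Wt1 in 4.

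The other 5 were higher in another wild-type tissue than in wild-type testes. Cldn11, also the claudin of oligodendrocyte myelin, had 356 TPM in brain and 70.2 TPM in eyes. Gata4, a cardiac factor as well, had 54.5 TPM in heart and 7.98 TPM in liver. Gata1 had 23.3 TPM in spleen, where mice make red cells, and Sox9 had 23.3 TPM in eyes, 18.5 TPM in brain and 16.9 TPM in prostate. Amh had 3.02 TPM in eyes beside its 2.21 TPM in testes.

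**Figure D4:**
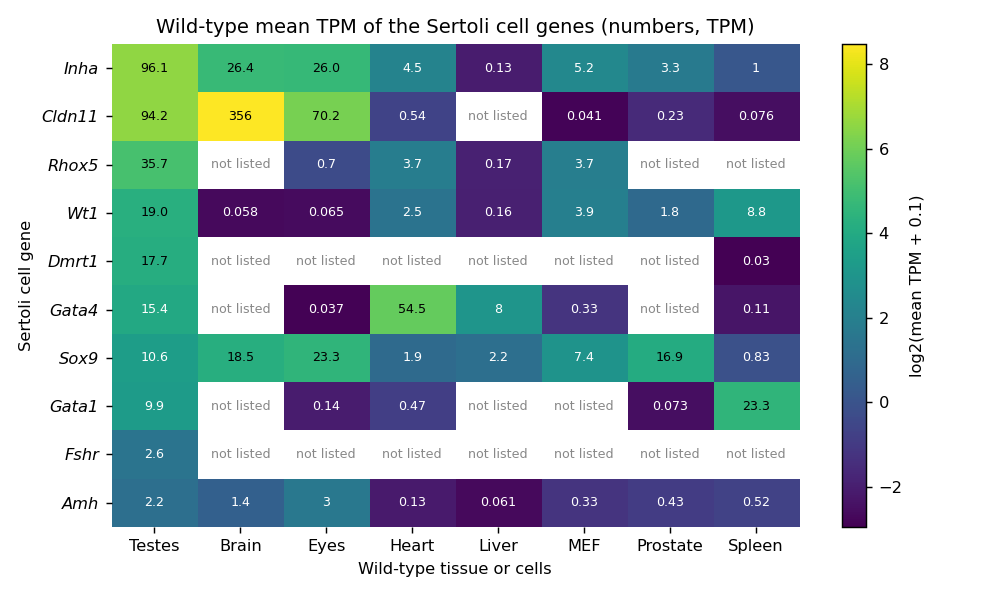
Wild-type mean TPM of the 10 Sertoli cell genes (rows) in testes and 7 other tissues (columns), printed as TPM and coloured by log2(mean TPM + 0.1). White cells mark genes not listed for that tissue, such as Fshr outside the testes, and the brightest cell is Cldn11 in brain at 356 TPM.

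Between Tug1-/- and wild type, 8 of the 25 pairs of a member and another tissue with at least 1 TPM were past 1.2-fold, 3 higher and 5 lower. The median over all genes was itself shifted, by -0.11 in eyes and spleen and by 0.10 in heart. In heart 4 of 5 members were past the limit, against 18.6% of genes, but Inha was under it when centred on that median (0.24) and Sox9 with a pseudocount of 1 TPM (-0.22). Wt1 had 2.53 TPM in wild-type heart and 3.55 TPM in Tug1-/- heart, and Inha 4.46 and 5.66 TPM, while Sox9 had 1.92 and 1.51 TPM and Rhox5 3.66 and 2.27 TPM. Gata4, the cardiac member, had 54.5 and 57.6 TPM. In MEFs 1 of 4 members was past it, against 28.1% of genes, and this was Rhox5, with 3.70 and 1.99 TPM. Rhox5 was therefore lower in Tug1-/- heart and MEFs and higher in Tug1-/- testes. The mean normalised count behind it was 44.8 in heart and 22.3 in MEFs.

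In spleen 2 of 3 members were past the limit, against 34.8% of genes. Gata1 had 23.3 TPM in wild-type spleen and 53.3 TPM in Tug1-/- spleen, 2.29-fold, the largest ratio of any member with at least 1 TPM in any tissue, at the 98.6th percentile of genes in spleen. All 10 genes of an erythroid list, written after these values were seen, were past the limit higher there, with a median of 1.13 and a summed level of 20269 TPM in wild-type spleen and 36829 TPM in Tug1-/- spleen. In testes 9 of the erythroid genes were listed, with sums of 46.5 and 41.9 TPM in the same order, where Gata1 was higher in Tug1-/-. The list moved in other tissues as well: its sum was 602 and 1830 TPM in eyes, with 4 of 6 genes of at least 1 TPM higher, 143 and 260 TPM in prostate, with 2 of 3 higher, and 37599 and 30041 TPM in heart, with 5 of 7 lower. Its part in the members' values was not tested. The other spleen member was Wt1, with 8.81 and 6.81 TPM, a difference of -0.37 that was under the limit when centred on all genes (-0.26). All 5 genes of a mesothelial list, also written afterwards, were lower in Tug1-/- spleen, with sums of 56.2 and 31.9 TPM. In heart, where Wt1 was higher, none of the 5 was past the limit, with sums of 73.2 and 67.6 TPM. In testes, where Wt1 was also higher, 3 of the 5 were lower and 1 higher, with sums of 20.1 and 12.8 TPM. In MEFs 3 of 4 mesothelial genes of at least 1 TPM were lower, with sums of 69.9 and 43.0 TPM, and Wt1 had 3.90 and 4.56 TPM.

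In eyes 1 of 4 members was past the limit, against 28.9% of genes. This was Amh, with 3.02 TPM in wild-type eyes and 2.28 TPM in Tug1-/- eyes. None was past it among 4 members in brain, 2 in liver and 3 in prostate, against 16.2%, 23.0% and 23.7% of genes. Cldn11 had 356 TPM in wild-type brain and 328 TPM in Tug1-/- brain, and Sox9 had 16.9 and 18.1 TPM in prostate.

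**Figure D5:**
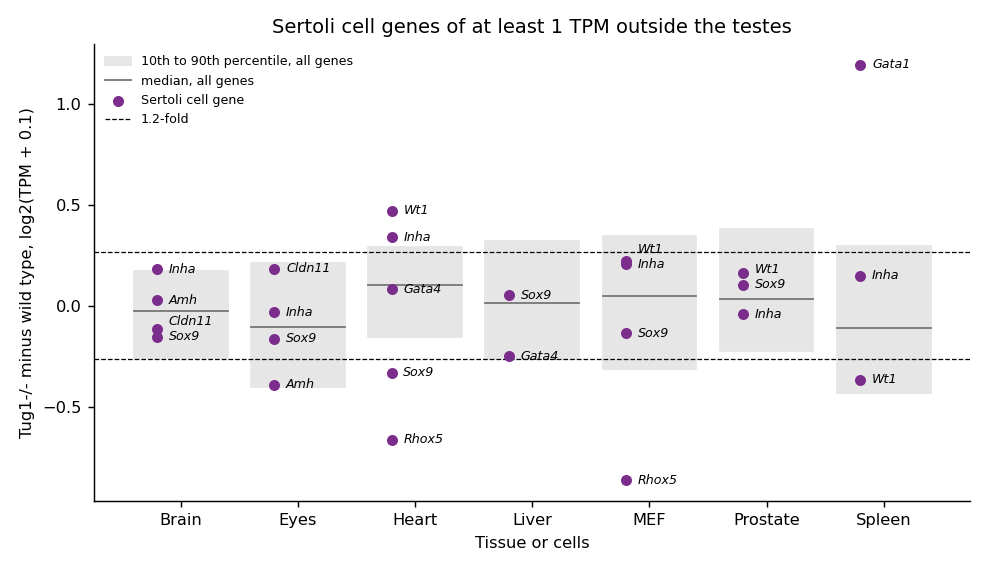
Tug1-/- minus wild type in log2(mean TPM + 0.1) for each Sertoli cell gene of at least 1 TPM (labelled points) in 7 other tissues. Grey boxes span the 10th to 90th percentile of all genes of at least 1 TPM in that tissue, grey lines are their medians and dashed lines mark 1.2-fold. Gata1 in spleen lies highest and Rhox5 in MEFs lowest.

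Over the 17 group means of all tissues, the gene whose log2 levels were most like a member's had a Pearson r of at least 0.928, a description over means that come in groups from the same tissue. For Cldn11 it was Elfn2 (r = 0.99), for Inha Sccpdh (r = 0.99), for Gata1 Cd96 (r = 0.98), for Amh Cry1 (r = 0.98), for Rhox5 Gm44767 (r = 0.96), for Sox9 Abca5 (r = 0.93), for Wt1 Itpripl1 (r = 0.93) and for Gata4 Gm40457 (r = 0.93). An r above 0.95 was held by 168 genes for Cldn11, 46 for Inha, 51 for Gata1, 53 for Amh and 2 for Rhox5. Sox9, Wt1 and Gata4 had 0 such genes. Fshr, nearest to Gm25829, and Dmrt1, nearest to Gm18986, had 4168 and 4225 such genes. Both are not listed or near 0 TPM in every other tissue.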

How the data were processed

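Libraries of poly(A) RNA (TruSeq) were read as 101-bp pairs. The authors aligned reads to GRCm38 (mm10) with STAR, counted uniquely mapped reads per GENCODE gene with featureCounts, and dropped genes that had under 3 reads in all replicates. Per the labels, CASAVA 1.8.2 made the base calls. Strand use is not stated. The values used are the authors' deposited group means in TPM for testes and for each other tissue, and the deposited mean normalised count per gene in the other tissues. No single-sample value was held, so the depth of each sample is unknown, and no SD, interval or test could be computed here. The authors' own comparisons, 18 columns of fold changes, statistics and p-values fitted on the samples, were deposited too and were left unused.

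Computed here were differences of log2(mean TPM + 0.1), called past 1.2-fold with at least 1 TPM in either group, set beside the same over all genes. Named are the 10 members, Tug1, up to 4 genes per list, and the gene most like each member (Pearson r, genes not listed set to 0). Inhba, Inhbb, Sf3a2 and Wt1os were named after their values were seen. Members and 15 lists were chosen with earlier results of these data known, and 2 lists were added after the values were seen. The computer code was tested on simulated data. Python 3.11.15, numpy 2.4.6, pandas 2.3.3 and matplotlib 3.10.9 were used. F1 hybrid testes (6 of 52 samples) were not analysed here. Upstream sequences are from RefSeq, which gave a window for 5 members.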

Additional observations from a re-analysis of the deposited data

How the results depend on the processing

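No paired analysis was possible because the tables hold group means, and for the same reason no replicate could be left out. Of 69 values under another setting, 21 were counts of 0 that stayed at 0 and 6 used a minimum that every member passes. Of the other 42, 34 stayed within 1.5 times the value reported, and no median changed its sign. The member medians ranged from 0.35 to 0.47 from wild type to Tug1-/-, from 0.22 to 0.24 from Tug1-/- to rescue and from 0.54 to 0.71 from wild type to rescue, under pseudocounts of 1 TPM or none, centring on all genes, the smaller member list, a minimum of 1 TPM, and both rescalings, which were chosen after seeing the data. With a 1.5-fold limit, 0 members were past it in either step and 5 from wild type to rescue, against 2.75%, 1.42% and 2.79% of all genes higher in the 3 comparisons, and 3 pairs in the other tissues, against 4.56% to 10.5% of genes by tissue. With a 1.1-fold limit, 9 members were past it from Tug1-/- to rescue, against 14.3% of genes, and 17 pairs in the other tissues, against 31.0% to 60.8%. With no minimum level, 18 of the 48 listed pairs in the other tissues were past 1.2-fold, since more pairs were counted. The share of all genes without a minimum was not computed, so this count has no background. Without Gata4, Inha, Dmrt1 and Gata1, 6 members were past 1.2-fold from wild type to rescue, which is all that remained. In the other tissues 7 pairs were past 1.2-fold with a pseudocount of 1 TPM, which lost Sox9 in heart, and 7 with centring, which lost Inha in heart and Wt1 in spleen and gained Cldn11 in eyes. Gata4 fell under 1.2-fold in Tug1-/- testes with a pseudocount of 1 TPM or centring, which left 6 members. How far these means vary between mice cannot be judged from them, least of all for Amh and Fshr, which had few TPM.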
